A study of Mus musculus with 6 samples.

Results

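The genes described here encode enzymes that break down histidine, proline, serine and glycine in the liver, in mice that lack fumarylacetoacetate hydrolase and either stayed on nitisinone (NTBC) or went without it for 7 days. The list named 10 genes, and 8 of them had a probe set with that gene symbol as its only symbol: Hal, Uroc1, Amdhd1 and Ftcd of histidine breakdown, Prodh and Prodh2 of proline and hydroxyproline breakdown, and Gldc and Agxt of glycine, serine and glyoxylate metabolism. Each of the 8 had 1 probe set, among 34472 probe sets and 22180 genes with a symbol of their own. Sds and Sdsl, which encode serine dehydratase and a serine dehydratase-like protein, were not analysed here.

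All mice were 12-week-old males of the FAH5981SB line on a C57Bl/6J background, whose Fah gene carries a point mutation at the end of an exon, so the fumarylacetoacetate hydrolase defect was present in both groups and no wild-type liver was compared. Fah catalyses the last step of tyrosine breakdown, its loss causes hereditary tyrosinemia, and NTBC blocks the same pathway at an earlier enzyme, Hpd. The continuous group (3 arrays) drank water with NTBC at 8 mg/l throughout, and the withdrawal group (3 arrays) drank it until 11 weeks of age and then went without for 7 days. Both groups ate LabDiet 5LJ5, a chow low in tyrosine and phenylalanine, and the labels give 3% dextrose as a supplement of the NTBC water without saying whether it was kept during withdrawal. The labels call the replicates biological and name no animals, so the p-values given here reflect sample-to-sample spread, which may be technical.

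Histidine is deaminated by Hal to urocanate, which Uroc1, Amdhd1 and Ftcd convert in turn to glutamate, with the formimino group passed to tetrahydrofolate at the Ftcd step. Proline and hydroxyproline are oxidised in mitochondria by Prodh and Prodh2. Glycine is split by the glycine cleavage system, of which Gldc is the decarboxylase, and Agxt is the peroxisomal aminotransferase that turns glyoxylate into glycine and can use serine as the amino donor. These enzymes are abundant in hepatocytes, and several of them, Hal among them, are known to be enriched around the portal vein.

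After NTBC withdrawal, 7 of the 8 measured genes fell and 1, Gldc, rose, all past an adjusted p of 0.05 in limma (a linear model fitted to all probe sets, Benjamini-Hochberg adjustment over all of them). Of all 34472 probe sets 9.40% passed this threshold, 3.20% lower and 6.21% higher. The median change of the 8 genes was -1.54 on the log2 scale, against -0.08 over all probe sets. These genes are bright, and of the 3722 probe sets at least as bright as the dimmest of them, 11.8% were lower and 20.8% higher. For each of the 8 the groups did not overlap, as was true of 27.6% of all probe sets (13.7% with withdrawal lower and 13.9% with withdrawal higher). All 7 falls and the rise were at least 2-fold, where 1.25% of probe sets were called and at least 2-fold lower and 2.17% called and at least 2-fold higher. In whole liver, fewer cells of a type and less RNA per cell cannot be told apart. Values below are log2 signals of the deposited normalized intensities, errors are SD over 3 arrays, and levels of different genes are not comparable because each probe set has its own response.

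**Figure D1:**
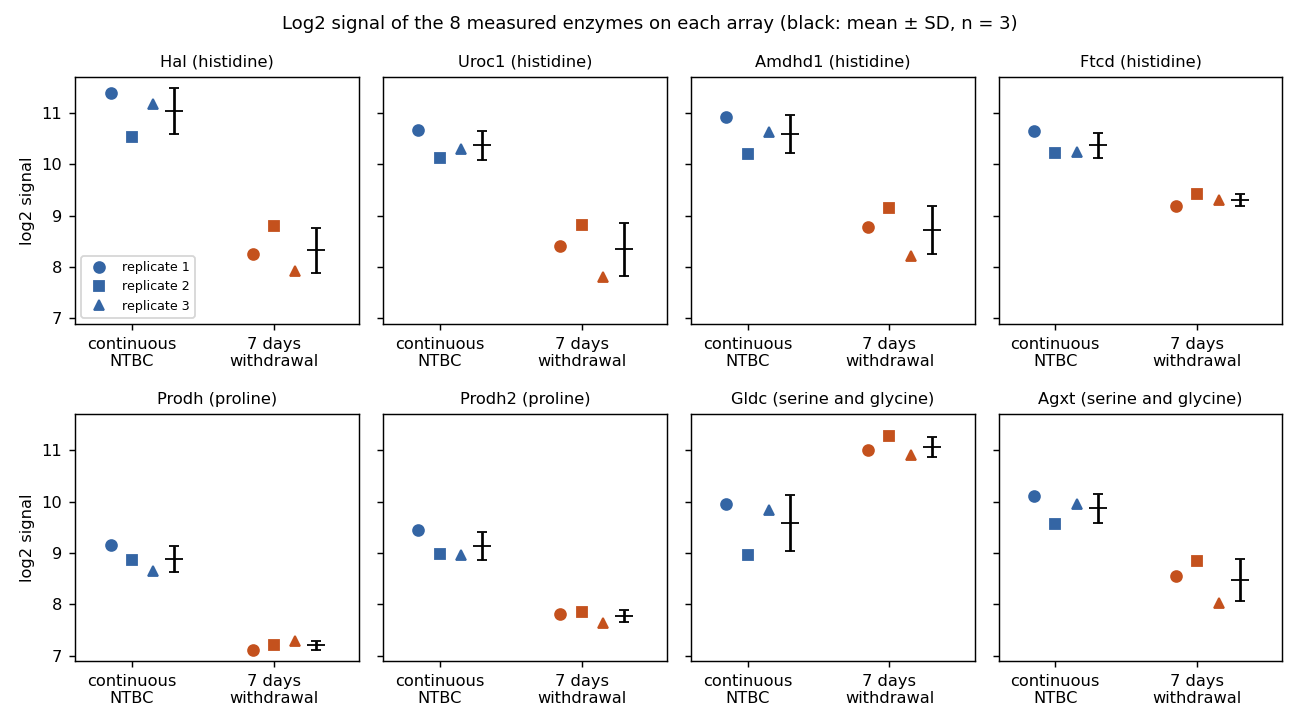
Log2 signal of the 8 enzymes (vertical axis) on each of the 6 arrays, with continuous NTBC in blue and withdrawal in orange. Marker shapes give the replicate number and black bars the mean ± SD (n = 3). The groups do not overlap for any of the 8 genes, and Gldc is the gene with the withdrawal arrays on top.

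The arrays held liver RNA in both groups. The hepatocyte list had 0 of 9 measured genes past limma's threshold (2 at an unadjusted p under 0.05). For 3 of the 9 all withdrawal arrays were lower, and for 0 all were higher. Serpina1a (change -0.77, limma adjusted p = 0.0625) passed under several other settings, quantile normalization among them (adjusted p = 0.0207). Fgb (change -0.37) passed with trend and robust (adjusted p = 0.0206). Alb, the main serum protein, was at 14.17 ± 0.06 and 14.12 ± 0.01 (SD, n = 3). Median log2 signals of the arrays ran from 5.21 to 5.44. Fah had a signal of 7.82 ± 0.42 with NTBC and 7.66 ± 0.23 without (change -0.15, adjusted p = 0.718), and this probe set signal does not check the point mutation. Hpd fell by 0.64 (SE 0.15, adjusted p = 0.0210). The array of continuous replicate 2 stood apart in having the highest signal of its group for 4 of 4 measured pancreatic acinar markers. Ctrb1, a digestive protease, was at 8.56 there and at 5.79 to 6.90 on the other 5 arrays, and the summed intensity of the list was 806 there against 236 to 317 in the withdrawal group. Without that array the 8 calls and their directions were the same, with changes from -2.96 (Hal) to -1.14 (Ftcd) for the 7 that fell and 1.17 for Gldc.

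Hal, histidine ammonia-lyase, fell the most of the 8. With NTBC its log2 signals were 11.40, 10.54 and 11.17 (replicates in order), and without NTBC they were 8.25, 8.80 and 7.93. The lowest continuous array lay 1.74 above the highest withdrawal array. The change was -2.71 (SE 0.26, 95% interval -3.30 to -2.12, adjusted p = 1.87e-04), which left 15.3% of the continuous signal. A larger fall was seen for 32 of the 34472 probe sets.

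Uroc1, urocanate hydratase, takes the product of Hal. Its signals were 10.68, 10.12 and 10.31 with NTBC and 8.42, 8.82 and 7.80 without. All withdrawal arrays were at least 1.30 below the lowest continuous array. The change was -2.02 (SE 0.25, 95% interval -2.58 to -1.46, adjusted p = 8.44e-04), a 4.07-fold lower signal.

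Amdhd1, imidazolonepropionase, carries out the next step. It went from 10.93, 10.21 and 10.64 to 8.78, 9.15 and 8.22. Its gap between the groups was 1.06. The change was -1.88 (SE 0.25, 95% interval -2.44 to -1.31, adjusted p = 0.00133), a 3.67-fold lower signal.

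Ftcd, the bifunctional enzyme that hands the formimino group to the folate pool, changed least of the histidine enzymes. Its signals were 10.65, 10.22 and 10.24 with NTBC and 9.20, 9.42 and 9.31 without. The groups were 0.80 apart at their nearest arrays, and the withdrawal arrays lay close together (SD 0.11). The change was -1.06 (SE 0.17, 95% interval -1.43 to -0.69, adjusted p = 0.00311), a 2.08-fold lower signal.

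The sizes of the 4 falls followed the order of the steps, from Hal to Uroc1, Amdhd1 and Ftcd. This was noticed after the values were seen. The same order of fitted changes was found in 15 of 15 other fits, but several of them could not alter it. The replicate block, trend and robust, raised low signals, averaged probe sets and fits on fewer probe sets left these changes as they were. Median centring moved all genes alike. The order could have differed with quantile normalization, array weights or an array left out, and it did not. The difference between neighbouring steps was computed on each array as one gene's log2 signal minus the other's, and compared between groups. The change of Hal exceeded that of Uroc1 by 0.69 (differences of 0.67 ± 0.22 with NTBC and -0.02 ± 0.15 without, SD, n = 3), and the change of Amdhd1 exceeded that of Ftcd by 0.82. Uroc1 and Amdhd1 differed by 0.15 in their change. An exact two-sided permutation test gave p = 0.1 for Hal against Uroc1 and for Amdhd1 against Ftcd (adjusted p = 0.125 over 5 pairs), the smallest value that 3 against 3 arrays allow, so none could pass 0.05. For Uroc1 against Amdhd1, where 1 continuous and 1 withdrawal array had the same difference, the exact test gave p = 0.2 (adjusted p = 0.2).

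Hal and Amdhd1 are neighbours on mouse chromosome 10, on opposite strands, with 0 annotated genes between them in RefSeq's GRCm38.p6. The coding genes on either side did not pass the threshold. Lta4h, a leukotriene hydrolase next to Hal, had a change of 0.34 (adjusted p = 0.315), and Ccdc38, next to Amdhd1, of -0.15 (adjusted p = 0.564). Ccdc38 was dim, at 4.77 ± 0.09 with NTBC and 4.62 ± 0.08 without (SD, n = 3), brighter than 35.2% of probe sets. All its withdrawal arrays lay below the continuous ones, as for 13.7% of all probe sets.

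The bases just before the transcription start of members that moved differently are shown here to let the promoters be read beside the changes. They are RefSeq sequences of GRCm38.p6, 250 bases ending at the base before the start, written 5′ to 3′ on the gene's strand, and a promoter was found for each of the 8 measured genes. Hal lies on the plus strand (chr10:93488518-93488767), Ftcd on the plus strand (chr10:76575398-76575647), Prodh2 on the plus strand (chr7:30493408-30493657) and Gldc on the minus strand (chr19:30175442-30175691). Capitals mark exact matches, on either strand, to the short motifs named in the paragraph that follows.
Hal: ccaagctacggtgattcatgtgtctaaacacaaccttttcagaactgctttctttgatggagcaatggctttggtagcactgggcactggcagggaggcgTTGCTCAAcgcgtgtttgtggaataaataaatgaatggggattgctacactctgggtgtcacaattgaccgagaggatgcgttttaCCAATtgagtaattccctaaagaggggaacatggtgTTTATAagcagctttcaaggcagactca
Ftcd: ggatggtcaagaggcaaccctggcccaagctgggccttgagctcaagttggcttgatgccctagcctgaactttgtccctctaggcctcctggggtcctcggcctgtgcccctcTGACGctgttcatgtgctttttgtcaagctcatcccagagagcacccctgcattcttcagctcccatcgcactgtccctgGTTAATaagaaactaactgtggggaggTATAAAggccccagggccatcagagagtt
Prodh2: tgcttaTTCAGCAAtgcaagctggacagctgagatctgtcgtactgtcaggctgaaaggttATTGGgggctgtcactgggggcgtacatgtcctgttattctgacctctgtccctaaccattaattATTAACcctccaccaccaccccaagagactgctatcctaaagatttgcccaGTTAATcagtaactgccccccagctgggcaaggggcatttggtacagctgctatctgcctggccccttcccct
Gldc: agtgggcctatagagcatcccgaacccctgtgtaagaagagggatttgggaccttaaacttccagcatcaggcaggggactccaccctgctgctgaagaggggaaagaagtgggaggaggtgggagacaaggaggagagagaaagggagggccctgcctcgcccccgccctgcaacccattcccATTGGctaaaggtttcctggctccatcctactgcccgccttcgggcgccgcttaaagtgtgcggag

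The motifs searched on both strands were the TATA box (TATAAA), the CCAAT box (CCAAT), an HNF1 half-site (GTTAAT), an HNF4A site (CAAAGTCCA), a C/EBP site (TTGCNNAA), a cAMP response half-site (TGACG), a glucocorticoid response half-site (TGTTCT), the core of the antioxidant response element (TGACNNNGC) and a CEBP-ATF site (TGATGNAA). No capital run in these 4 sequences joins overlapping motifs. A TATA box match lay from position -28 to -23 before the start of Hal, on the minus strand, and from -29 to -24 before that of Ftcd, and 12.4% of 32851 promoter windows of the same length hold one. Hal also held a C/EBP match (9.56% of windows) and a CCAAT box (33.8%). Ftcd further held an HNF1 half-site and a cAMP response half-site (17.8% of windows). Prodh2 held a CCAAT box, a C/EBP match and a pair of HNF1 half-sites, on opposite strands, and 6.43% of windows hold at least 1. Among the other members, the antioxidant response core was in the Prodh window (10.2% of windows) and the glucocorticoid half-site in that of Agxt (16.1%). The window of Gldc, the gene that rose, held a CCAAT box and none of the other motifs. This did not set it apart from the genes that fell. Uroc1 also held CCAAT boxes alone, and Amdhd1 held none of the motifs. The HNF4A and CEBP-ATF letters were in 0 of the 8 windows, against 0.384% and 3.45% of all windows. These matches describe letters in a window and are not binding data.

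Prodh, proline dehydrogenase, had log2 signals of 9.15, 8.87 and 8.65 with NTBC and 7.11, 7.21 and 7.29 without. The withdrawal arrays were tightly grouped (SD 0.09) and at least 1.36 below the continuous ones. The change was -1.69 (SE 0.17, 95% interval -2.05 to -1.32, adjusted p = 2.01e-04), which left 31.1% of the continuous signal.

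Prodh2, hydroxyproline dehydrogenase, went from 9.45, 8.98 and 8.97 to 7.82, 7.86 and 7.64. Continuous replicate 1 was the highest array for both dehydrogenases, and the groups of Prodh2 were 1.11 apart. The change was -1.36 (SE 0.17, 95% interval -1.74 to -0.98, adjusted p = 9.45e-04), a 2.57-fold lower signal. Prodh fell by 0.33 more than Prodh2 on the log2 scale, with differences of -0.24 ± 0.12 with NTBC and -0.57 ± 0.19 without (SD, n = 3; exact two-sided permutation p = 0.1, adjusted p = 0.125 over the 5 pairs).

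Agxt, the glyoxylate and serine aminotransferase, fell. Its signals were 10.11, 9.56 and 9.96 with NTBC and 8.55, 8.84 and 8.03 without. The nearest arrays of the groups were 0.72 apart, the smallest gap of the 8 genes. The change was -1.40 (SE 0.23, 95% interval -1.90 to -0.90, adjusted p = 0.00361), a 2.65-fold lower signal.

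Gldc, the glycine decarboxylase, rose. Its signals were 9.95, 8.96 and 9.84 with NTBC and 11.01, 11.29 and 10.91 without. Continuous replicate 2 was far below the other continuous arrays, and the lowest withdrawal array was still 0.96 above the highest continuous one. The change was 1.49 (SE 0.25, 95% interval 0.93 to 2.04, adjusted p = 0.00453), a 2.80-fold higher signal, and 1.17 without continuous replicate 2 (adjusted p = 0.00613). The change of Gldc differed from that of Agxt by 2.89, with a log2 difference of -0.29 ± 0.27 with NTBC and 2.60 ± 0.25 without (SD, n = 3; exact two-sided permutation p = 0.1, adjusted p = 0.125 over the 5 pairs).

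**Figure D2:**
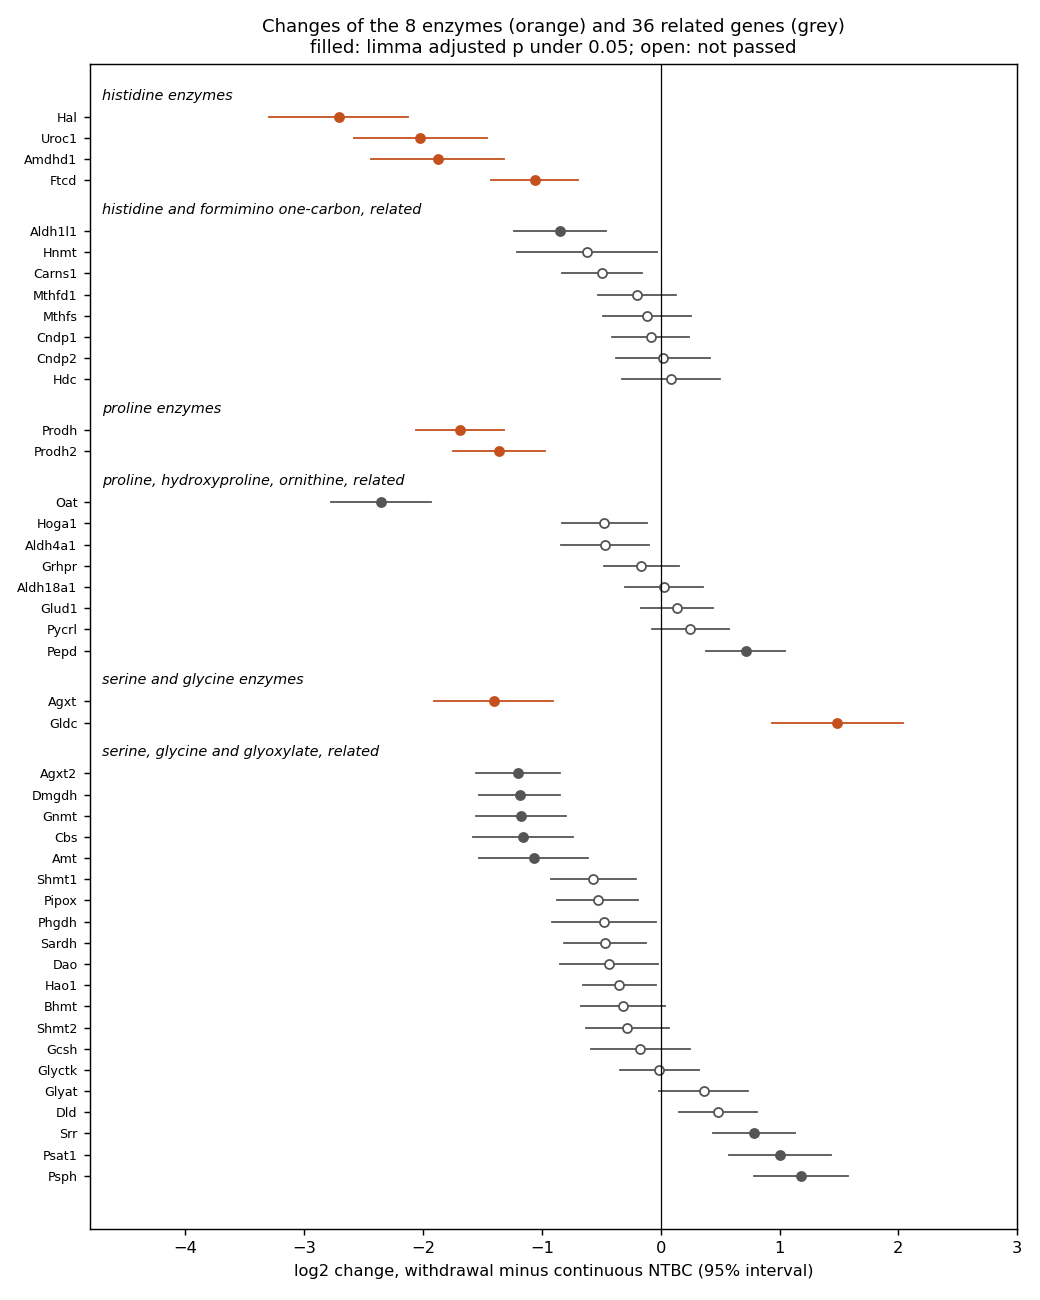
Log2 change, withdrawal minus continuous NTBC, with its 95% interval (horizontal axis) for the 8 enzymes in orange and 36 related genes in grey, by pathway. Filled points passed limma's adjusted p of 0.05. The 7 enzymes that fell lie between -2.71 and -1.06, while most related genes, 25 of 36, did not pass.

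The other genes of these pathways changed less uniformly. Of 36 measured related genes (44 symbols listed), 7 were lower, 4 higher and 25 did not pass, with a median change of -0.30. Over all probe sets 3.20% were lower and 6.21% higher. Quantile normalization, leaving out dim probe sets and array weights each gave 11 lower.

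Of the protein partners of Gldc, 1 fell and the others did not pass the threshold. The glycine cleavage system needs 4 proteins, and Amt, the aminomethyltransferase, fell, with signals of 8.80, 8.25 and 8.03 with NTBC and 7.35, 7.43 and 7.10 without (change -1.07, SE 0.21, adjusted p = 0.00955). Gcsh, the lipoyl carrier protein, had overlapping groups and a change of -0.17 (adjusted p = 0.628). Dld, a dehydrogenase shared with other mitochondrial complexes, had a change of 0.48 that did not pass (adjusted p = 0.0728), although its withdrawal arrays (10.36 to 10.43) were all above the continuous ones (9.78 to 10.09). The Dld value passed with array weights, with trend and robust, without dim probe sets and with low signals raised to the lower quartile (adjusted p from 0.0272 to 0.0458). The opposite calls of Gldc and Amt were found in 15 of 15 other fits.

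Among the other serine, glycine and glyoxylate genes (20 measured, 5 lower, 3 higher, median -0.39), the lower ones were Amt, Gnmt, Dmgdh, Agxt2 and Cbs. Gnmt, which methylates glycine, fell by 1.18 (SE 0.17, adjusted p = 0.00204), and Dmgdh, which demethylates dimethylglycine, fell by 1.19 (SE 0.15, adjusted p = 0.00103). Sardh and Pipox, which oxidise the sarcosine between them, did not pass, at -0.47 (adjusted p = 0.0929) and -0.53 (adjusted p = 0.0570). Sardh passed without dim probe sets (adjusted p = 0.0458) and with trend and robust (adjusted p = 0.0342), and Pipox passed under 7 of the other settings (adjusted p from 0.0196 to 0.0463). Agxt2, a mitochondrial aminotransferase that also accepts glyoxylate, had 43.5% of its continuous signal (adjusted p = 0.00119), and Cbs, which condenses serine with homocysteine, fell by 1.16 (adjusted p = 0.00383).

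The serine synthesis genes went the other way in part. Psph, the phosphatase that releases serine, went from 6.23, 6.59 and 6.50 to 7.78, 7.77 and 7.32 (change 1.18, adjusted p = 0.00257). Psat1, the aminotransferase before it, rose to 200.5% of its continuous signal (adjusted p = 0.00889), a call that ended when withdrawal replicate 1 was left out (adjusted p = 0.0527). Phgdh, the first enzyme of the route, had a change of -0.48 that did not pass (adjusted p = 0.172) except with array weights (adjusted p = 0.0392). Srr, serine racemase, rose by 0.78 (adjusted p = 0.0108), which also ended when withdrawal replicate 1 was left out (adjusted p = 0.0644). Shmt1 and Shmt2, the cytosolic and mitochondrial enzymes that interconvert serine and glycine, did not pass, with -0.57 for Shmt1 (adjusted p = 0.0538) and -0.28 for Shmt2 (adjusted p = 0.321). The Shmt1 value passed under 6 of the other settings, quantile normalization among them (adjusted p = 0.00995).

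Of 8 measured related genes of proline, hydroxyproline and ornithine, 1 fell and 1 rose, with a median of -0.07. Oat, ornithine aminotransferase, which makes the same intermediate as Prodh, went from 10.81, 10.99 and 11.34 to 8.81, 8.40 and 8.87. Its change was -2.35 (SE 0.19, adjusted p = 6.02e-05). The steps after the dehydrogenases changed less. Aldh4a1, which oxidises the products of both Prodh and Prodh2, had a change of -0.47 (adjusted p = 0.118) and Hoga1, a later step of hydroxyproline breakdown, of -0.47 (adjusted p = 0.103), and both passed with quantile normalization (adjusted p = 0.0199 and 0.0223). Pepd, which frees proline from dipeptides, rose by 0.72 (adjusted p = 0.0140), but did not pass once withdrawal replicate 1 (adjusted p = 0.0814) or 2 (adjusted p = 0.0715) was left out.

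Of 8 measured related genes of histidine and formimino one-carbon metabolism, 1 fell, with a median of -0.15. Aldh1l1, which oxidises formyl-tetrahydrofolate downstream of Ftcd, went from 11.55, 11.13 and 11.25 to 10.36, 10.71 and 10.32 (change -0.85, SE 0.17, adjusted p = 0.0129). It did not pass once withdrawal replicate 1 was left out (adjusted p = 0.0738). The genes of other routes of histidine did not pass. Carns1, which joins histidine to beta-alanine to make carnosine, went from 6.47, 6.59 and 6.67 to 6.01, 5.96 and 6.28 with no overlap (change -0.49, adjusted p = 0.0751). It passed without dim probe sets, with array weights and with low signals raised to the lower quartile (adjusted p from 0.0237 to 0.0415). Hdc, which makes histamine, had a change of 0.09 (adjusted p = 0.816) and Hnmt, which methylates it, of -0.62 (adjusted p = 0.189).

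Within each group the enzymes also varied together from array to array. Continuous replicate 2 was the lowest continuous array for 6 of the 8 genes, withdrawal replicate 2 the highest withdrawal array for 7 and withdrawal replicate 3 the lowest for 6. Over all 34472 probe sets the same positions held for 31.1%, 32.0% and 35.4%. These array positions were read off the same values and are a description. All of these positions held at once for 5 genes, Hal, Uroc1, Amdhd1, Agxt and Gldc, and for 8.43% of all probe sets. Gldc thus followed the order of Hal, Uroc1 and Amdhd1 inside the groups while its change between the groups had the opposite sign. Over the 6 deviations from the group means, which share arrays and scaling, Pearson's r was 0.97 between Amdhd1 and Hal and 0.99 between Agxt and Amdhd1. For Gldc it was 0.90 with Hal, 0.80 with Amdhd1, 0.65 with Uroc1 and 0.63 with Ftcd. Pearson's r was 0.15 between Prodh and Hal and 0.69 between Prodh2 and Prodh. These correlations are descriptions of 6 arrays.

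**Figure D3:**
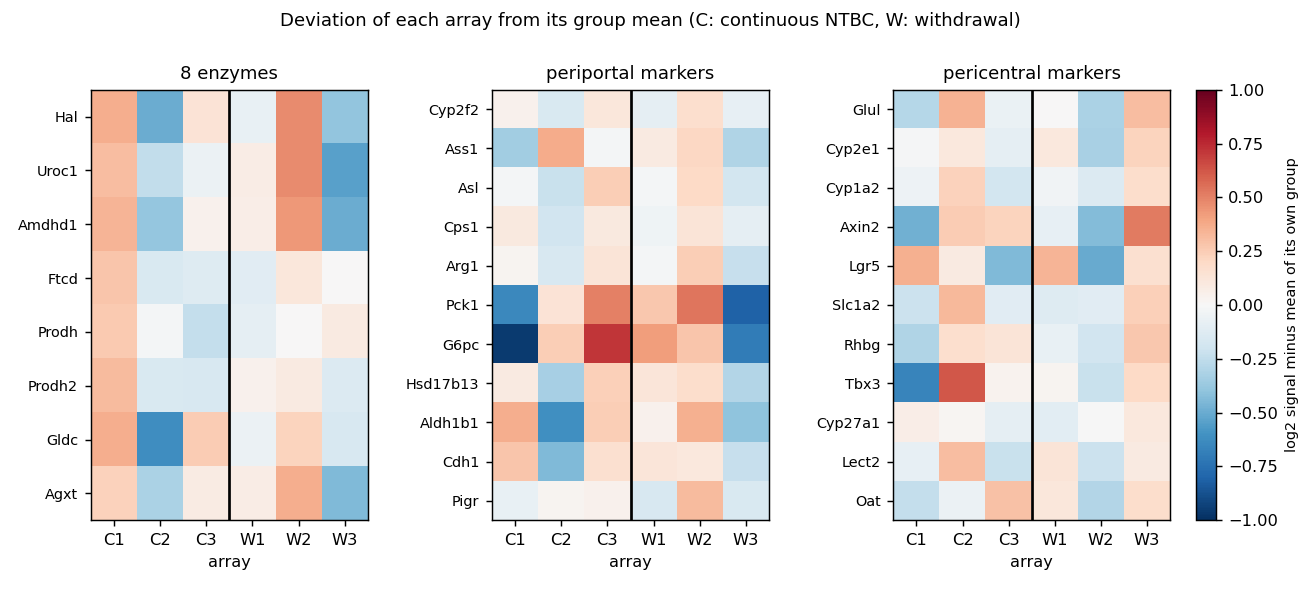
Log2 signal of each array minus the mean of its own group (colour, red above and blue below the group mean) for the 8 enzymes, periportal markers and pericentral markers, with C for continuous NTBC and W for withdrawal. Columns C2 and W3 are blue for most of the enzymes and periportal markers and red for most pericentral markers.

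Markers of liver zones moved with these arrays. Of 11 measured periportal genes, continuous replicate 2 was the lowest continuous array for 7 and withdrawal replicate 3 the lowest withdrawal array for 9. Of 11 measured pericentral genes, the same arrays were the highest of their groups for 8 and 9. Over all probe sets these 2 arrays were the lowest for 31.1% and 35.4%, and the highest for 32.2% and 38.8%. Between the groups, 6 periportal genes were lower and 2 higher (median -0.85), and 5 pericentral genes were lower and 0 higher in limma (median -0.90), with 1 higher at an unadjusted p under 0.05. That gene was Cyp1a2, named after its value was seen (change 0.55, adjusted p = 0.0687), which passed under 5 of the other settings, median centring among them (adjusted p = 0.0316). In the same list Lgr5 went the other way, with a change of -0.90 that did not pass (adjusted p = 0.0569). Lgr5 passed under several other settings, trend and robust among them (adjusted p = 0.0456). The summed intensity of the periportal list was 29567 to 36747 with NTBC and 18690 to 24912 without, and that of the pericentral list 21301 to 24760 and 12080 to 16106. Pigr, the immunoglobulin receptor of hepatocytes and bile ducts, fell by 3.45 (adjusted p = 3.89e-06), Cps1, which commits ammonia to the urea cycle, fell by 1.08 (adjusted p = 0.00179), and G6pc, the last enzyme of glucose output, fell by 2.43 (adjusted p = 0.00448). The 2 periportal genes that rose were Aldh1b1 (change 1.36, adjusted p = 0.0115) and Hsd17b13 (change 0.89, adjusted p = 0.0184). Ass1 fell, with a change of -0.85 (adjusted p = 0.0312). The Aldh1b1 call ended only when withdrawal replicate 2 was left out (adjusted p = 0.0546). That of Hsd17b13 ended in several fits with 1 array left out (highest adjusted p = 0.0903). The Ass1 call ended with median centring (adjusted p = 0.0523). With 1 array left out, Ass1 passed only without continuous replicate 1. On the pericentral side Slc1a2, a glutamate carrier, fell by 1.56 (adjusted p = 6.47e-04), Cyp27a1, a sterol hydroxylase, fell by 1.05 (adjusted p = 0.00137), and Cyp2e1 fell by 1.11 (adjusted p = 0.00325). The part of zonal composition in the changes of the 8 enzymes was not tested.

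Markers of other liver cells were read on the same arrays. Of 8 sinusoidal endothelial markers 2 were higher after withdrawal (5 at an unadjusted p under 0.05), and for 6 all withdrawal arrays lay above the continuous ones, with a summed intensity of 1566 to 1832 with NTBC and 2321 to 2409 without. Clec4g, a lectin of these cells, rose by 0.81 (adjusted p = 0.00553) and Lyve1, a hyaluronan receptor, by 1.07 (adjusted p = 0.0324), the latter no longer past the threshold without continuous replicate 2 (adjusted p = 0.0563), without any 1 of the withdrawal arrays (highest adjusted p = 0.130) or with quantile normalization (adjusted p = 0.0661). Lists of macrophages (10 measured), stellate cells and fibroblasts (10), cholangiocytes (5) and T, B and NK cells (8) each had 0 genes past limma's threshold (1, 2, 1 and 1 at an unadjusted p under 0.05), with medians from -0.21 to 0.15. Their summed intensities were 1289 to 1560 and 1228 to 1800 for macrophages, 1410 to 1761 and 1584 to 1941 for stellate cells and fibroblasts, 248 to 286 and 262 to 302 for cholangiocytes, and 264 to 328 and 246 to 279 for lymphoid cells, with NTBC and without. Some of these genes passed under other settings. Sox9 (change 0.54) passed without dim probe sets, with array weights and with low signals raised (adjusted p from 0.0329 to 0.0498). Krt7 (change -0.49) passed with array weights and without continuous replicate 1 (adjusted p = 0.0419 and 0.0330). Lrat passed with array weights, Cd5l without withdrawal replicate 3 and Lyz2 with quantile normalization (adjusted p = 0.0442, 0.0383 and 0.0425). No detection flags were used, so no marker can be called absent. The part of these cells in the changes was not tested.

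Genes with the profile most like each enzyme over the 6 arrays were found by Pearson's r among genes with 1 symbol. Nearest to Hal were Gnmt (r = 0.999), Ivd, which acts in leucine breakdown (0.998), and the carboxylesterase Ces2a (0.998). Nearest to Amdhd1 was Agxt (r = 0.998), followed by Tcea3 and Slc26a1, and nearest to Agxt was Ahcy (r = 0.999), which hydrolyses the by-product of Gnmt, followed by Amdhd1 and Mtarc1. For Uroc1 they were Tcea3, Afm and Snapc5, and for Ftcd Slc22a28, Klf12 and Gcnt4. For Prodh they were Syt1, Eif4ebp2 and Nudt7, and for Prodh2 Etfdh, Agxt2 and the clock repressor Nr1d1. For Gldc they were Btaf1, Larp7 and Sf3b1, of which Btaf1 passed the threshold itself (change 1.12, adjusted p = 0.00838). Every r named here lay between 0.996 and 0.999, and with 6 arrays in 2 groups such values include the group difference.

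Of 9 measured regulators of hepatic amino acid catabolism, 3 were lower and 0 higher in limma (0 higher at an unadjusted p under 0.05 too), with a median of -0.40. Gcgr, the glucagon receptor, went from 9.15, 8.87 and 8.37 to 7.71, 7.78 and 7.57 (change -1.11, SE 0.20, adjusted p = 0.00674). Klf15, a transcription factor of amino acid breakdown, fell by 0.73 (adjusted p = 0.0361), but not with median centring (adjusted p = 0.0893), nor without continuous replicate 3 or any 1 of the withdrawal replicates (highest adjusted p = 0.116). Cebpa, a hepatocyte transcription factor, fell by 0.58 (adjusted p = 0.0477), but not with median centring (adjusted p = 0.150), nor without continuous replicate 1, continuous replicate 2 or any 1 of the withdrawal replicates (highest adjusted p = 0.196). Creb3l3 had a change of -0.46 that did not pass (adjusted p = 0.0802). It passed with quantile normalization, without dim probe sets, with trend and robust and with low signals raised (adjusted p from 0.0336 to 0.0401). Nr3c1 had a change of -0.40 (adjusted p = 0.153) and passed with quantile normalization (adjusted p = 0.0184). Hnf4a had a change of 0.13 (adjusted p = 0.630).

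**Figure D4:**
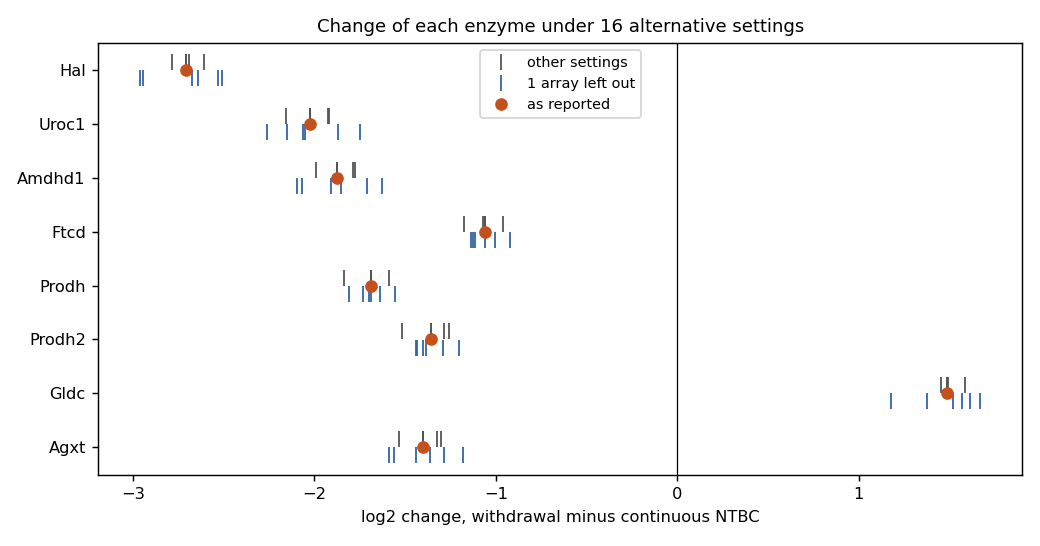
Log2 change of the 8 enzymes, withdrawal minus continuous NTBC (horizontal axis), as reported (orange points), with 1 array left out (blue ticks) and under the other settings (grey ticks). No tick crosses 0, and the widest range, from -2.26 to -1.75, belongs to Uroc1 among the genes that fell.

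The changes of the 8 enzymes kept their side of the threshold under all 16 alternatives. Hal ranged from -2.96 to -2.51, Uroc1 from -2.26 to -1.75, Amdhd1 from -2.09 to -1.63 and Ftcd from -1.18 to -0.92. Prodh ranged from -1.84 to -1.56, Prodh2 from -1.52 to -1.20, Agxt from -1.59 to -1.18 and Gldc from 1.17 to 1.67. The highest adjusted p among them was 0.0247, for Gldc, and the lowest value of Ftcd was under a 2-fold change.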

How the data were processed

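Mouse liver RNA was measured on 6 Affymetrix whole-transcript arrays, from 100 ng of total RNA per the labels' protocols. The values the authors deposited are linear normalized intensities of probe sets. They used Transcriptome Analysis Console, per the submitters' processing notes; its version, background correction, normalization and genome build are not given in the sources used here. Every deposited value (100%) was within 0.006 of a power of 2 with an exponent of 2 decimals, so rounding took place on the log2 scale. Arrays give no counts, and their number (3 per group) limits the precision.

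The test was limma 3.58.1 under R 4.3.3 (lmFit, eBayes, 4 residual and 10.2 total degrees of freedom) on the log2 values of the 34472 probe sets, withdrawal minus continuous and two-sided. Adjustment was by Benjamini-Hochberg over the whole table, the threshold 0.05, and nothing was filtered out. Symbols came from the platform annotation (23521 probe sets with 1 symbol, 1814 with several, 9137 without), and the brightest probe set stood for a gene. Of the 23521, 23328 matched a mouse gene table by identifier. The fit was checked against known answers on simulated arrays with the spread of these probe sets. Of 100 simulated log2 changes of 1 it called 43%, of 100 changes of -2 it called 91%, and it called 10 of the unchanged probe sets. The simulated noise was independent between probe sets, whereas genes on the real arrays varied together, so these rates need not hold for the real arrays. Pairs of genes were compared by an exact permutation test on differences rounded to 3 decimals, so that ties stay ties, 2 pairs planned and 3 added after the values were seen.

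The members and lists were chosen with earlier results of these data known. Named were all measured members, up to 8 genes per related list with the smallest p-values plus Aldh4a1, Shmt1, Shmt2, Amt, Gcsh, Dld, Oat and Hoga1, up to 4 regulators or zone markers per list, and the 3 genes closest in profile to each member. Genes named outside this rule, after their values were seen, were Sardh, Pipox, Phgdh, Alb, Serpina1a, Fgb, Ctrb1, Clec4g, Lyve1, Cyp1a2, Ass1, Hsd17b13, Aldh1b1, Lta4h, Ccdc38 and Hnf4a. The same holds for Lgr5, Sox9, Krt7, Lrat, Cd5l, Lyz2 and Nr3c1. Alternatives were quantile normalization, median centring, leaving out dim probe sets, a replicate block, array weights, trend and robust, probe sets with 1 symbol, low signals raised to their array's lower quartile, averaging a gene's probe sets, a 2-fold rule and each array left out.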

Additional observations from a re-analysis of the deposited data

How the results depend on the processing

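The counts of 7 lower and 1 higher enzymes were the same under all 16 alternatives. The number of probe sets called over the whole table was 3241, and it was 5588 with array weights, 1178 with the 2-fold rule and from 1454 to 4210 with 1 array left out (2078 without continuous replicate 2, 1454 without withdrawal replicate 1 and 1795 without withdrawal replicate 2). Related genes called lower numbered 7, and 11 with quantile normalization, without dim probe sets or with array weights, and 6 to 8 with 1 array left out. Related genes called higher numbered 4, and 2 with the 2-fold rule and 1 to 4 with 1 array left out (1 without withdrawal replicate 1). The 2-fold rule asks for more and so can only lower a count. Fits with 1 array left out have fewer samples, and the highest of their counts, 4210, came without continuous replicate 1. The cause of the shifts other than that of the 2-fold rule was not tested.

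Deviations of same-numbered arrays correlated at 0.16, -0.12 and 0.22, and those of differently numbered arrays at -0.36 to 0.25. With 3 arrays per group these values cannot decide whether the replicate numbers pair the arrays. No label says that a number marks a shared litter or day. With the replicate block, 3298 probe sets were called, and 7 enzymes were lower and 1 higher, while Klf15 (adjusted p = 0.0573) and Cebpa (adjusted p = 0.0592) did not pass limma. The difference in change between Prodh and Prodh2 ranged from -0.44 to -0.26, and that between Gldc and Agxt from 2.74 to 2.98, over scaling, low signals raised and left-out arrays. The planned comparison of Sds with Sdsl was not run. No background level is given, so a fold from a dim probe set can be compressed; the 8 enzymes were brighter than 89.2% to 98.1% of probe sets.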
